A study of Mus musculus with 6 samples.

Results

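The genes described here are 10 markers of the resident macrophages of the vessel wall, among them the 3 chains of complement C1q. They are *Csf1r*, *Cd68*, *Adgre1*, *Lyz2*, *C1qa*, *C1qb*, *C1qc*, *Mrc1*, *Cd163* and *Lyve1*, chosen by gene symbol from the 55341 rows of the count table, and all 10 were among the 16017 genes tested. The study compared aortas of 3 miRNA-26b-/- mice with those of 3 miRNA-26b+/+ mice by RNA sequencing, one library per mouse. The knock-out libraries are named M2626, M2627 and M2628 (replicates 1, 2 and 3), and the wild-type libraries, labelled naive, M2629, M2630 and M2631.

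All mice were 8 weeks old, were fed a normal diet and carry the strain label C57BL/6NCrl. The miRNA-26b-/- allele lacks the miRNA-26b stretch within intron 4 of *Ctdsp1* and was built in 129/Sv-derived embryonic stem cells. The floxed stretch was deleted by tamoxifen in mice with a CreERT2 transgene, whose promoter is not given in the sources used here and which was bred out afterwards. The labels name the cells as aortic endothelial cells whereas the methods describe explanted aortic arch and thoracic aorta, and in the libraries the smooth muscle genes *Acta2*, *Myh11*, *Tagln* and *Cnn1* summed to 29140 to 39318 CPM (counts scaled to a common library size) against 361 to 1518 CPM for the endothelial genes *Pecam1*, *Cdh5*, *Vwf* and *Tie1*. The values therefore describe whole vessel wall. In such bulk tissue fewer cells of a type and less RNA per cell cannot be told apart. The libraries held 25706728 to 33345037 counts, and the members were covered by 138 (*Cd68* in M2627) to 9521 counts (*Lyz2* in M2628) per library. *Mir26b* itself had 0 counts in the 3 knock-out libraries and 0, 20 and 0 counts in the wild-type libraries, so these libraries of longer RNA hardly check the genotype.

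Macrophages of the aorta sit mostly in the adventitia and depend on signals through CSF1R, the receptor for the growth factors CSF1 and IL-34. Many of them carry the scavenger and endocytic receptors MRC1 (CD206) and CD163 and the hyaluronan receptor LYVE1. C1q is the recognition molecule of the classical complement pathway, assembled from A, B and C chains; unlike most complement proteins, which come largely from the liver, it is made mainly by macrophages and related myeloid cells, and it tags immune complexes and dying cells for removal.

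The A, B and C chain genes lie side by side on the minus strand of chromosome 4 (GRCm38, GENCODE annotation), with *C1qb* at chr4:136880129-136886187, *C1qc* at chr4:136889804-136893065 and *C1qa* at chr4:136895917-136898803. The cluster spans 18675 bases, with gaps of 3616 bases between *C1qb* and *C1qc* and 2851 bases between *C1qc* and *C1qa*.

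Because the deleted gene encodes a microRNA, the 3′ ends of the members were searched for matches to the seed of its 5p strand. The paper states that the knock-out mice lack both mature strands, and matches to the other strand were not searched. The mature 5p strand is shown, from RefSeq (chr1:74394324-74394344, plus strand, GRCm38), with the seed, bases 2 to 8, in capitals. The line under it is the only match found in a member, in the longest annotated 3′ UTR of *Lyve1* with its flanks, with the match in capitals.
miR-26b-5p: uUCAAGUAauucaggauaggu
Lyve1 site: tttccatttttTACTTGAAttacaggaccc

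The letters searched, on the sense strand only, were TACTTGA and ACTTGAA, which overlap each other in the 8-letter match TACTTGAA. That 8-letter match begins at base 792 of the 1565 bases of the *Lyve1* 3′ UTR, and 4.19% of 21022 genes hold one, while 18.3% hold any of the matches. The other 9 members hold none of these letters in the longest annotated 3′ UTR, which runs from 158 bases in *Cd68* to 1669 bases in *Csf1r*.

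All members but *Cd68* moved together across libraries, as described below, so the promoters of the ones that a RefSeq table (GRCm38.p6) holds were also searched; it holds 6 of the 10, each from 250 bases before to 50 bases after the start. The letters were those of the binding motif of PU.1, the ETS-family factor of myeloid cells, in a short form, GAGGAA, and a core form, AGGAAGT, on both strands, and the forms may overlap. They were chosen after the sequences were seen. The core form is present in 4 of the 6 promoters (*Lyz2*, *C1qb*, *C1qc* and *Mrc1*) and in 9.35% of all 32851 promoters of that length; the short form is in 4 of the 6 (*Cd68*, *C1qb*, *C1qc* and *Mrc1*) and in 28.3% of all. The promoters of the C1q chains in the table and of *Lyz2*, the member that ran closest to *C1qa*, follow with either form in capitals.
C1qb (chr4:136886151-136886450, minus strand): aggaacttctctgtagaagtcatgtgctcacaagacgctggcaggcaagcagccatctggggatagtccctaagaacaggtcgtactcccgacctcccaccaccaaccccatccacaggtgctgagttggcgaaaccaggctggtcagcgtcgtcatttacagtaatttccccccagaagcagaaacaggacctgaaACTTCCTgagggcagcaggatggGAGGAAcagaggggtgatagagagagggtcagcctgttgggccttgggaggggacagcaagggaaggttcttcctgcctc
C1qc (chr4:136892865-136893164, minus strand): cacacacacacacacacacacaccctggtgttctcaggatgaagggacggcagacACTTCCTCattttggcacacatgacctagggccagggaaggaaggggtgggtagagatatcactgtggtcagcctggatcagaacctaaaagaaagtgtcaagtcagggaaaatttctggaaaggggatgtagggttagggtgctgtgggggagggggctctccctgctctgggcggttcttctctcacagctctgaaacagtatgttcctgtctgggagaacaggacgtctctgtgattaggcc
Lyz2 (chr10:117282223-117282522, minus strand): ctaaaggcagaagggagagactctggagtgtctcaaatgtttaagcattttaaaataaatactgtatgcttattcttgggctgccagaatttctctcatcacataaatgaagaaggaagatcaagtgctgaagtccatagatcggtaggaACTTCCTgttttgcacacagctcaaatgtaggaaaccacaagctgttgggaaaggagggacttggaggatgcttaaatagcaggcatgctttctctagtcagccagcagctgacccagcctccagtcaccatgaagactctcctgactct

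In these 3 promoters the core form reads on the opposite strand, as ACTTCCT, and its first letter lies 53 bases before the start in *C1qb*, 195 in *C1qc* and 100 in *Lyz2*. In *C1qc* the match to the core form runs into one to the short form. A match is a run of letters, and binding was not measured.

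The other members lie apart, *Lyz2* at chr10:117277331-117282321 (minus strand), *Cd68* at chr11:69664213-69666153 (minus), *Adgre1* at chr17:57358691-57483527 (plus), *Csf1r* at chr18:61100598-61132149 (plus), *Mrc1* at chr2:14229392-14332057 (plus), *Cd163* at chr6:124304656-124330527 (plus) and *Lyve1* at chr7:110850607-110863239 (minus). *Csf1r* is the only member whose exons overlap those of another gene: 15.12% of its exon bases are shared with *Hmgxb3* on the opposite strand, and since reads were counted without regard to strand, reads there cannot be told apart.

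Over all 6 libraries, none of the 10 genes differed between miRNA-26b-/- and miRNA-26b+/+ aortas. With the quasi-likelihood test of edgeR, 0 of 10 passed an adjusted p of 0.05, where 0.00624% of all genes tested (1 gene) did, and 0 of 10 had an unadjusted p under 0.05, where 6.46% of all genes tested did. DESeq2, limma voom and edgeR's likelihood ratio test also gave 0 of 10 at an unadjusted p under 0.05. Fitted levels were higher in miRNA-26b-/- for *Cd68* and *C1qb* and lower for the other 8, with a median log2 fold change of -0.25 over the members and 0.01 over all genes tested. With limma, which averages log2 values, the directions were those of edgeR and the sizes differed, with a median of -0.38 by voom. The groups overlapped for all 10, whereas they did not overlap for 11.5% of all genes tested. The genes varied mainly among the knock-out libraries: M2628 was the highest of the 6 libraries for every member, and M2626 and M2627 were both below every wild-type library for 9 of 10, *Cd68* being the exception. Levels are given throughout as CPM scaled by TMM, edgeR's normalization across libraries.

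Of the general macrophage genes, *Csf1r* had 45.3, 64.1 and 123 CPM in M2626, M2627 and M2628 and 79.1, 88.6 and 121 CPM in the wild-type libraries. M2628 and the wild-type library M2631 were nearly level at the top, and the other 2 knock-out libraries were the lowest. The log2 fold change was -0.31 ± 0.285 (SE; 95% confidence interval -0.92 to 0.29; edgeR adjusted p = 0.907). *Cd68*, which encodes a lysosomal glycoprotein of phagocytes, had 8.86, 4.11 and 26.7 CPM in the knock-out libraries and 8.41, 10.4 and 4.83 CPM in the wild type. Here M2626 lay within the wild-type range and M2627 just under it, while M2628 stood at 338% of the wild-type mean. Its log2 fold change of 0.72 ± 0.581 (SE) had an interval from -0.52 to 1.96 (edgeR adjusted p = 0.887).

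*Adgre1*, which encodes the F4/80 antigen of mouse macrophages, had 5.62, 9.05 and 38.6 CPM in the knock-out libraries against 22.7, 26.02 and 20.4 CPM in the wild type. The wild-type libraries lay close together, M2626 and M2627 at 24.4% and 39.3% of their mean and M2628 at 168%. The log2 fold change was -0.38 ± 0.483 (SE; interval -1.41 to 0.65; edgeR adjusted p = 0.941). *Lyz2*, which encodes the lysozyme of macrophages and other myeloid cells, had 137, 157 and 337 CPM against 208, 221 and 230.5 CPM. It was the most abundant member also per exon length (RPKM, the CPM divided by the exon length in kilobases), with a wild-type mean of 167 ± 8.51 RPKM (SD, n = 3), and its log2 fold change was -0.06 ± 0.254 (SE; interval -0.60 to 0.48; edgeR adjusted p = 0.991). Its paralog *Lyz1*, whose reads can be hard to separate from those of *Lyz2*, had 2.55 to 11.1 CPM.

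**Figure D1:**
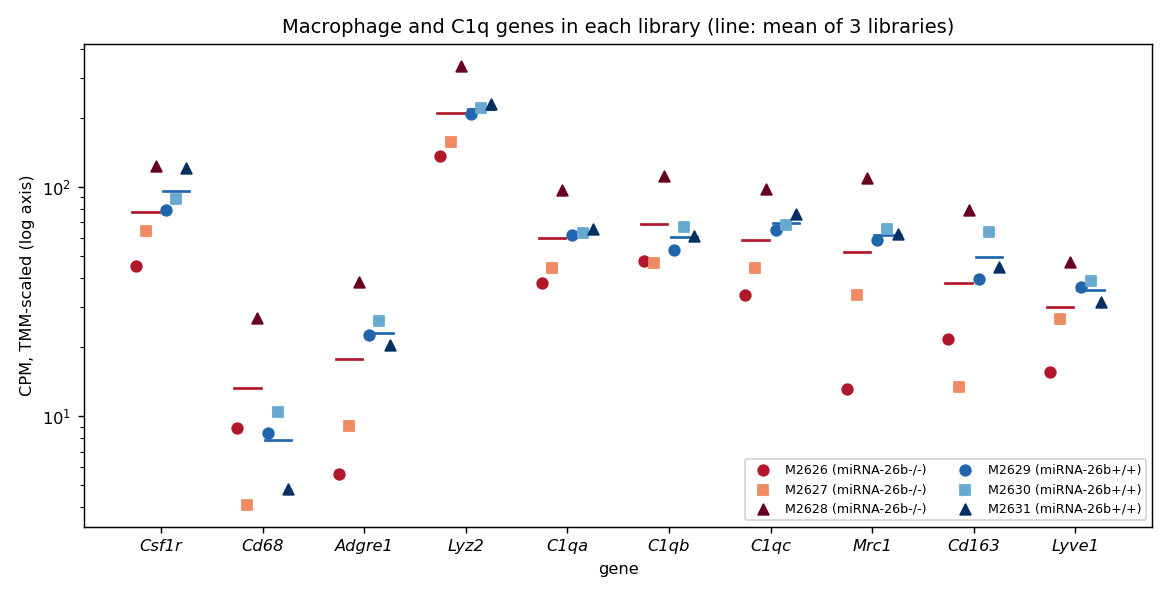
Level of each of the 10 genes in each library, in TMM-scaled CPM on a log axis, with red tones for the 3 miRNA-26b-/- libraries, blue tones for the 3 miRNA-26b+/+ libraries and a short line at each group mean. The dark red triangles (M2628) are the top point for all 10 genes, and the red circle and orange square (M2626 and M2627) lie under every blue point for all but *Cd68*.

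The 3 C1q chain genes followed that order. *C1qa* had 38.2, 44.2 and 97.0 CPM in the knock-out libraries and 61.9, 63.2 and 65.3 CPM in the wild type. *C1qb* had 47.3, 46.7 and 112 CPM against 53.0, 67.04 and 61.4 CPM, and *C1qc* had 33.9, 44.4 and 98.1 CPM against 64.6, 68.5 and 76.5 CPM. For each chain the wild-type libraries lay in a narrow band, with M2626 and M2627 under it and M2628 above it. Summed over the chains, the levels were 119, 135 and 307 CPM against 179.6, 199 and 203 CPM. The log2 fold changes were -0.09 ± 0.280 (SE) for *C1qa* (interval -0.69 to 0.51), 0.18 ± 0.288 for *C1qb* (-0.43 to 0.79) and -0.25 ± 0.295 for *C1qc* (-0.88 to 0.38), with edgeR adjusted p = 0.987, 0.959 and 0.934. Per exon length, the wild-type means were 61.0 ± 1.64 RPKM for *C1qa*, 55.6 ± 6.47 for *C1qb* and 36.2 ± 3.13 for *C1qc* (SD, n = 3), and in miRNA-26b-/- 57.5 ± 31.1, 63.0 ± 34.3 and 30.4 ± 17.8 RPKM.

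Of the receptors of resident macrophages, *Mrc1* had 13.1, 33.7 and 109.6 CPM in the knock-out libraries against 58.5, 65.3 and 62.2 CPM in the wild type. That is an 8.36-fold range among the knock-out libraries, the widest of the 10 genes, and a 1.11-fold range among the wild-type ones. *Cd163*, which encodes the haemoglobin-haptoglobin scavenger receptor, had 21.6, 13.4 and 79.5 CPM against 39.8, 63.5 and 44.6 CPM. *Lyve1* had 15.6, 26.5 and 47.3 CPM against 36.6, 38.9 and 31.4 CPM, and it is also expressed by lymphatic endothelium. In all 3 genes M2628 was the highest library and M2626 and M2627 the lowest. The log2 fold changes were -0.25 ± 0.448 (SE; interval -1.20 to 0.71) for *Mrc1*, -0.38 ± 0.448 (-1.34 to 0.58) for *Cd163* and -0.25 ± 0.311 (-0.91 to 0.42) for *Lyve1*, with edgeR adjusted p = 0.965, 0.934 and 0.939. The intervals of all 10 members include 0, and since they reach past 1 or -1 for *Cd68*, *Adgre1*, *Mrc1* and *Cd163*, a doubling of *Cd68* or a halving of the other 3 could not be told from no change with 3 libraries a group.

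In wild-type aorta the order of the means per exon length was *Lyz2* (167 RPKM), *C1qa* (61.0), *C1qb* (55.6), *C1qc* (36.2), *Csf1r* (16.7 ± 3.83), *Lyve1* (12.2 ± 1.32), *Mrc1* (9.73 ± 0.527), *Cd163* (9.03 ± 2.30), *Adgre1* (7.11 ± 0.879) and *Cd68* (6.28 ± 2.26; SD, n = 3). The values of *C1qa* and *C1qb*, of *Mrc1* and *Cd163*, of *Cd163* and *Adgre1*, and of *Adgre1* and *Cd68* overlap between these neighbours, while *Lyz2*, *C1qb*, *C1qc*, *Csf1r* and *Lyve1* were apart from the next gene down in every wild-type library.

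The 10 genes varied more within miRNA-26b-/- than within miRNA-26b+/+. The SD of log2 CPM among the miRNA-26b-/- libraries was 0.70 to 1.53 (median 0.80), and among the miRNA-26b+/+ libraries it was 0.04 to 0.57 (median 0.17). It was larger in miRNA-26b-/- for 10 of 10 members, against 58.3% of the 11635 genes with a mean of at least 5 CPM, whose medians were 0.30 and 0.25. M2628 was the highest library for 10 of 10 members and for 20.0% of all genes tested. M2626 and M2627 were both below every wild-type library for 9 of 10 members and for 13.7% of all genes, and both patterns held together for 9 of 10 and for 3.62%. Summed, the 10 genes took 0.0365%, 0.0447% and 0.108% of the counts in the knock-out libraries and 0.0643%, 0.0703% and 0.0705% in the wild type. All members but *Cd68* rose and fell together across the same 6 libraries, so these counts are not independent of each other.

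The outcome of the comparison therefore rests on M2628. Without it, with 2 knock-out and 3 wild-type libraries, all 10 genes had a lower fitted level in miRNA-26b-/-, and the median log2 fold change was -0.76. Each library was left out in turn, and M2628 is described first because of its values, so what follows restates the order of the libraries given above and is no independent evidence of a lower level. Of the 10, 8 had an unadjusted p under 0.05 with edgeR, all of them lower, where 10.8% of all genes tested passed and 5.77% passed in that direction. After adjustment 2 of 10 passed, where 0.524% of all genes did. These were *Cd163*, with a log2 fold change of -1.52 ± 0.299 (SE; interval -2.15 to -0.89; edgeR adjusted p = 0.0288), and *Mrc1*, with -1.35 ± 0.286 (-1.95 to -0.74; edgeR adjusted p = 0.0445). *Adgre1* followed with -1.61 ± 0.375 (edgeR adjusted p = 0.0776). The values of *C1qc*, *Csf1r*, *Lyve1*, *C1qa* and *Lyz2* were -0.82, -0.80, -0.72, -0.62 and -0.57 (edgeR unadjusted p = 0.00118, 0.00235, 0.0201, 0.00736 and 0.00155), while *C1qb* (-0.36, edgeR unadjusted p = 0.0948) and *Cd68* (-0.34, 0.548) did not pass at either level. The sample labels of M2628 are those of the other knock-out libraries. In the column names of the deposited log2 CPM table it is headed Ko2, as is M2627, where M2626 is headed Ko1. Its total of 27905415 counts lies within the range of the rest. It had the fewest genes detected, 17744 against 18136 to 19287, and the part of this in the result was not tested. The values of the members are therefore given both with and without it. Without M2627 instead, 1 of 10 had an unadjusted p under 0.05, where 5.75% of all genes did: it was *Cd68*, higher in miRNA-26b-/- by a log2 fold change of 1.21 (edgeR adjusted p = 0.857).

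**Figure D2:**
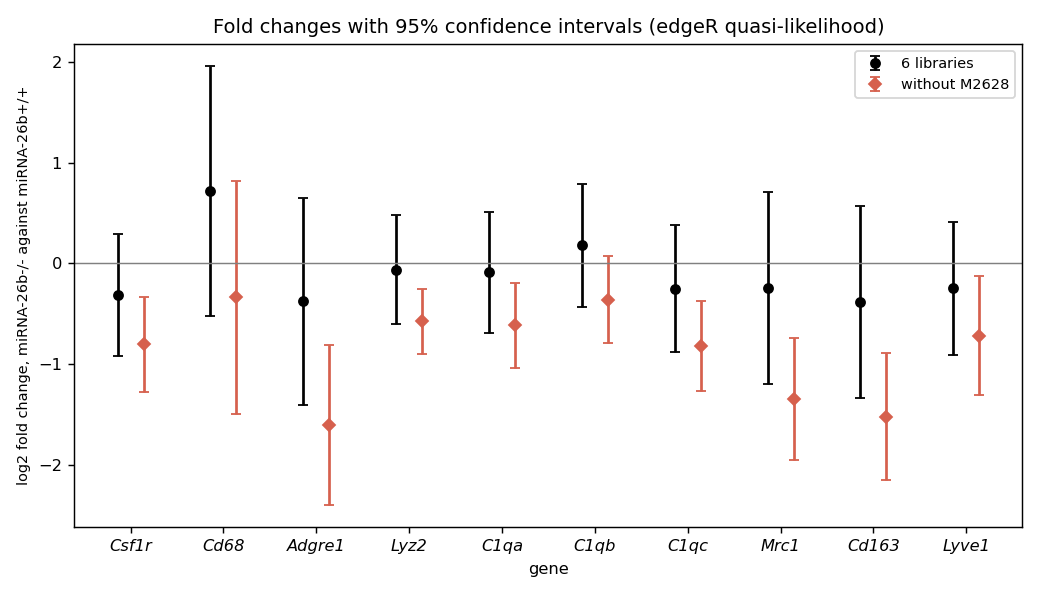
Log2 fold change of each of the 10 genes, miRNA-26b-/- against miRNA-26b+/+, from edgeR, with bars for the 95% confidence interval; black circles use all 6 libraries and red diamonds leave out the knock-out library M2628. Every black bar crosses 0, and without M2628 the bars of 8 genes lie wholly below 0, those of *Cd68* and *C1qb* crossing it.

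Ratios between members within a library do not depend on its depth, and they show how evenly the genes moved. The ratio of *Lyz2* to *C1qa* was 3.58, 3.57 and 3.48 in the knock-out libraries and 3.36, 3.49 and 3.53 in the wild type. The highest was 1.07 times the lowest, although each gene varied over 2-fold among the knock-out libraries. The ratio of *C1qb* to *C1qa* was 1.24, 1.06 and 1.15 against 0.856, 1.06 and 0.940, and the ratio of *C1qc* to *C1qa* was 0.887, 1.005 and 1.012 against 1.04, 1.08 and 1.17. The last of these did not overlap between the groups, lower in miRNA-26b-/- by a difference of -0.19 on the log2 scale (exact permutation test, two-sided, p = 0.1, the smallest that 3 against 3 can give). These 3 ratios were chosen after the values were seen.

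The other 6 ratios were compared by exact permutation tests, two-sided, with adjustment over the 6. None differed between genotypes, with exact permutation p-values from 0.3 to 1.0 and adjusted values from 0.75 to 1.0. The C1q sum stood at 2.64, 2.11 and 2.50 times *Csf1r* in the knock-out libraries and at 2.27, 2.24 and 1.68 times in the wild type. The resident-cell receptors were less even: *Lyve1* to *Mrc1* was 1.19, 0.789 and 0.431 against 0.626, 0.597 and 0.505, and *Mrc1* to *Csf1r* was 0.290, 0.525 and 0.892 against 0.740, 0.737 and 0.513. For *Mrc1* the low value of M2626 thus went beyond that of *Csf1r* in the same library. *Cd163* to *Mrc1* ran from 0.397 in M2627 to 1.65 in M2626, both in the same genotype. The C1q sum was 13.5, 32.9 and 11.5 times *Cd68* in the knock-out libraries and 21.4, 19.0 and 42.1 times in the wild type, so *Cd68* did not keep step with the C1q genes in either genotype. *Lyz2* to *Csf1r* was 3.02, 2.46 and 2.74 against 2.63, 2.49 and 1.90.

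**Figure D3:**
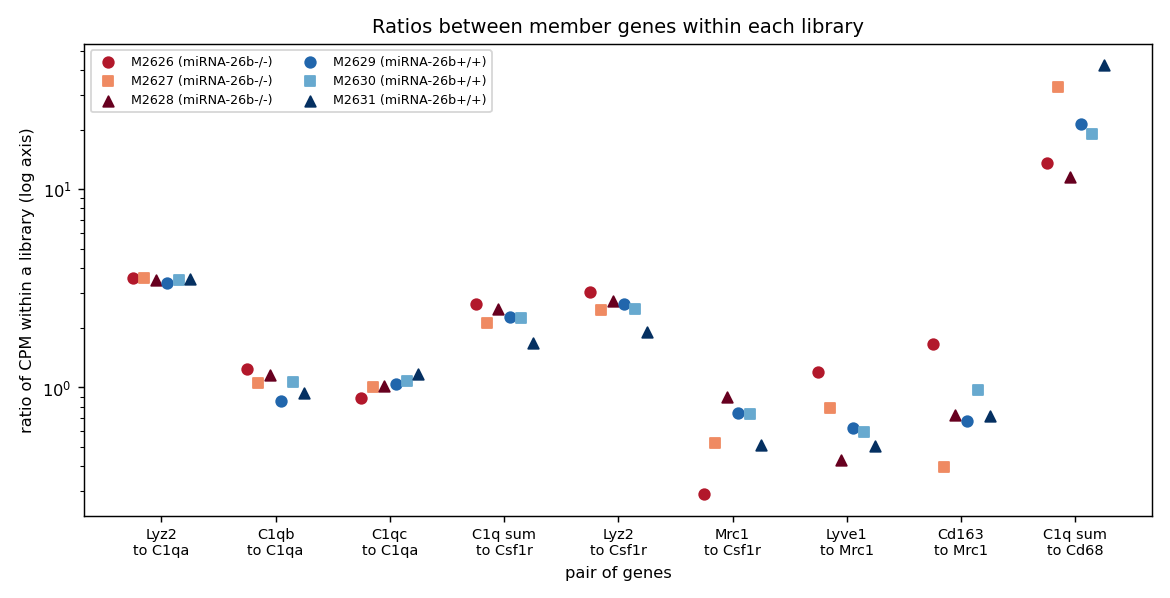
Ratio of the CPM of one gene, or of the summed C1q chain genes, to that of another within each library, on a log axis, with the colours and symbols of the plot of levels. The 6 points for *Lyz2* to *C1qa* lie between 3.36 and 3.58, whereas those for *Mrc1* to *Csf1r*, *Cd163* to *Mrc1* and the C1q sum to *Cd68* are spread over 3-fold or more, and *C1qc* to *C1qa* is the only ratio whose groups do not overlap.

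Over the 6 libraries, the Pearson correlation of log2 CPM was 0.743 to 0.998 for the 36 pairs of members without *Cd68* and 0.324 to 0.827 for the 9 pairs with it. For *Lyz2* and *C1qa* it was 0.998 (permutation p = 0.00139, 0.0125 adjusted over the 45 pairs) with Spearman's rho of 1.0 (permutation p = 0.00278, 0.0156 adjusted), and it was 0.991 without the 2 libraries farthest from the median. *C1qa* and *C1qc* gave 0.979 (permutation p = 0.00139, 0.0125 adjusted), a rho of 1.0 (permutation p = 0.00278, 0.0156 adjusted) and 0.984 without those libraries. For *Cd68* and *C1qa* it was 0.660 (permutation p = 0.157, 0.178 adjusted), with a rho of 0.429 (permutation p = 0.419, 0.419 adjusted) and -0.31 without the 2 farthest libraries, so that relation rested on them. Some pairs without *Cd68* also weakened without the 2 farthest libraries, *Csf1r* and *Lyve1* from 0.849 to 0.315 and *Adgre1* and *Csf1r* from 0.895 to 0.354. Other pairs held or rose, such as *Mrc1* and *Cd163* from 0.781 to 0.985. The pairs share libraries and depth.

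Other genes of the same cells were taken from lists. Of 18 other macrophage genes, 0 had an unadjusted p under 0.05 over all 6 libraries (median log2 fold change -0.06), M2628 was the highest library for 13 (against 20.0% of all genes tested), and M2626 and M2627 were both below the wild type for 10 (against 13.7% of all genes tested). The most abundant over the 6 libraries were *Lgmn*, which encodes a lysosomal protease, with 99.1, 114 and 123 CPM against 98.2, 116 and 138 CPM, and *Mertk*. *Mertk*, which encodes a receptor for the uptake of dying cells, had 91.0, 95.01 and 126 CPM against 121, 124 and 123 CPM. Without M2628, 7 of the 18 were lower at an unadjusted p under 0.05, where 5.77% of all genes tested were. After adjustment 1 passed, where 0.524% of all genes did. It was the cathepsin gene *Ctss* (log2 fold change -1.40, edgeR adjusted p = 0.0319), named after its values were seen. Of 10 genes of resident adventitial macrophages, 1 was lower at an unadjusted p under 0.05, where 6.46% of all genes tested passed. It was *Fcna*, a ficolin of the lectin pathway (log2 fold change -1.78, edgeR adjusted p = 0.736). The median was -0.26, and M2628 was the highest library for 6 (against 20.0% of all genes tested). Without M2628, 5 of those 10 were lower and 1, *Cbr2*, higher at an unadjusted p under 0.05, where 10.8% of all genes tested passed. Of these, 2 lower ones passed the adjustment, where 0.524% of all genes did. Both of these are among the 3 most abundant of the list: the scavenger receptor gene *Stab1*, with 60.6, 61.0 and 309 CPM against 180.0, 256 and 224 CPM (log2 fold change -1.85 without M2628, edgeR adjusted p = 8.4e-05), and the coagulation factor gene *F13a1*, with 34.5, 42.9 and 130.3 CPM against 65.8, 115 and 82.1 CPM (-1.16, edgeR adjusted p = 0.0437). *Stab1* is also expressed by some endothelial cells. *Cbr2*, a carbonyl reductase gene, had 402, 358 and 243 CPM against 291, 287 and 328 CPM, the reverse order, with M2628 the lowest library.

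Of the ligands of CSF1R, *Csf1* had 100.02, 71.5 and 85.9 CPM against 78.0, 86.2 and 119 CPM (edgeR adjusted p = 0.946), and *Il34* had 0.546, 1.82 and 1.81 CPM against 3.06, 4.04 and 0 CPM (edgeR adjusted p = 0.947). Neither followed the order of the libraries seen for *Csf1r*. The median of these 2 genes was -0.42.

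Most genes of the other complement components did not have M2626 and M2627 both below every wild-type library. Of 10, which include the C1 proteases *C1ra* and *C1s1* and also lectin and alternative pathway genes, 9 were tested, and 0 had an unadjusted p under 0.05 (median log2 fold change 0.04). M2628 was the highest library for 6 (against 20.0% of all genes tested) and M2626 and M2627 were both below the wild type for 2 (against 13.7% of all genes tested). Without M2628, 3 were lower and 1 higher at an unadjusted p under 0.05, where 10.8% of all genes tested passed, and none after adjustment. *C3*, the central component, had 483, 703 and 862 CPM against 609.7, 1221 and 724 CPM. *Cfd*, the adipsin gene of fat cells, had 555, 1143 and 411 CPM against 445, 701 and 257 CPM, and *C7*, of the membrane attack complex, had 277, 240.4 and 539 CPM against 334, 392 and 438 CPM. Of 10 complement regulators, 8 were tested and 0 had an unadjusted p under 0.05 (median -0.14). *Clu*, which encodes clusterin, had 985, 898 and 1118 CPM against 1048, 1089 and 1255 CPM, and *Serping1*, which encodes the C1 inhibitor, had 481, 555 and 771 CPM against 585, 669 and 675 CPM. Of 11 complement and C1q receptor genes, 1 was lower at an unadjusted p under 0.05, where 6.46% of all genes tested passed. It was *Cd93*, a gene of endothelial and myeloid cells, with 24.5, 46.6 and 102 CPM against 102, 116 and 87.6 CPM (log2 fold change -0.81, edgeR adjusted p = 0.736). The median was -0.24. Without M2628, 5 of the 11 were lower at an unadjusted p under 0.05, where 5.77% of all genes tested were. After adjustment 1 passed, where 0.524% of all genes did. Of 9 genes for the clearance of dying cells, 0 had an unadjusted p under 0.05 (median -0.02), and the bridging protein gene *Mfge8* had 962 to 1159 CPM in the knock-out and 998 to 1155 CPM in the wild-type libraries. Without M2628, 2 of the 8 then tested were lower at an unadjusted p under 0.05, where 5.77% of all genes tested were. These were *Stab1* (log2 fold change -1.85), which also passed the adjustment, and *Mertk* (-0.40).

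Markers of other cells were summed in each library to show what else moved. The 4 endothelial genes had 361, 388 and 1518 CPM in the knock-out libraries against 1021, 1423 and 1246 CPM. Of these, 4 of 4 were lower in both M2626 and M2627 than in every wild-type library (against 13.7% of all genes tested). M2628 was the highest library for 3 of 4 (against 20.0% of all genes tested). None passed an unadjusted p of 0.05 over 6 libraries (median -0.56). Without M2628, 4 of 4 were lower at an unadjusted p under 0.05 (median -1.38), where 5.77% of all genes tested were. After adjustment 2 passed, where 0.524% of all genes did. So the endothelial genes had nearly the order of libraries that the macrophage genes had, and their part in the result was not tested. The 4 fibroblast genes were all highest in M2628 (against 20.0% of all genes tested). They summed to 2990, 3383 and 5566 CPM against 2857, 2899 and 3659 CPM, 0 of 4 passing an unadjusted p of 0.05 (median 0.11). The 4 smooth muscle genes stayed at 36746, 32969 and 29140 CPM against 31955, 33118 and 39318 CPM, with M2628 the lowest (0 of 4 passing, median -0.07).

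Leukocyte genes were low throughout. The 4 pan-leukocyte genes summed to 22.8, 16.4 and 60.9 CPM against 34.8, 35.2 and 40.8 CPM, again lowest in M2626 and M2627 and highest in M2628 (0 of 4 passing, median -0.04). *Ptprc*, which encodes CD45, had 112, 0 and 271 counts against 388, 332 and 214 counts, and a count of 0 in M2627 allows up to 0.0900 CPM, counting error only. The 8 neutrophil genes, each with at most 3 counts in some library, summed to 1.80 to 6.30 CPM in miRNA-26b-/- and 8.28 to 20.6 CPM in miRNA-26b+/+. Of the 4 tested, 1 was lower at an unadjusted p under 0.05, where 6.46% of all genes tested passed. It was *S100a9* (0, 48 and 80 counts against 111, 198 and 258, edgeR adjusted p = 0.736). The 7 monocyte genes, also each with at most 3 counts in some library, summed to 4.06 to 11.8 CPM against 7.87 to 16.5 CPM. *Lyz2* is expressed by neutrophils and monocytes as well as macrophages, and in M2626 it had 3504 counts beside 0 of *S100a9*. The 6 dendritic cell genes summed to 18.5 to 21.3 CPM against 25.1 to 26.2 CPM (0 of 5 tested passing, median -0.38), and the 5 mast cell genes to 14.1 to 20.6 against 11.3 to 22.5 CPM (0 of 4 tested passing). The 10 T and B lymphocyte genes summed to 0.595 to 6.45 against 2.55 to 8.07 CPM. Of the 4 tested, 1 was higher at an unadjusted p under 0.05, where 6.46% of all genes tested passed. It was *Cd79b* (102, 0 and 43 counts against 1, 0 and 0, edgeR adjusted p = 0.747).

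The other lists did not follow the macrophage order. Of the 6 lymphatic endothelial genes, which bear on *Lyve1*, 1 was higher at an unadjusted p under 0.05, where 6.46% of all genes tested passed. It was *Reln* (log2 fold change 0.94, edgeR adjusted p = 0.736), and the others did not pass. *Flt4* went the other way, with 4.02, 4.02 and 7.9 CPM against 6.85, 12.7 and 12.3 CPM (log2 fold change -0.998, edgeR unadjusted p = 0.0521). It was the only gene of the 6 with M2626 and M2627 both below the wild type. This gene was named after its values were seen. Without M2628 its log2 fold change was -1.39 (edgeR unadjusted p = 0.0207, adjusted p = 0.349). The sum of the 6 genes was 49.1, 49.7 and 64.0 CPM against 36.5, 49.5 and 56.6 CPM. The 3 Schwann cell genes were all higher in miRNA-26b-/- at an unadjusted p under 0.05, where 6.46% of all genes tested passed. None of them passed after adjustment. They summed to 127, 117 and 53.2 CPM against 7.82, 30.6 and 40.2 CPM. Their sums were highest in the libraries where the macrophage genes were lowest, and their part in the result was not tested. *Th* of 2 sympathetic neuron genes was also higher at an unadjusted p under 0.05 with edgeR. So were *Acta1* and *Tnnt3* of the 3 muscle genes tested. Of all genes tested, 6.46% passed that threshold. *Th*, *Acta1* and *Tnnt3* did not pass after adjustment, and *Th* had counts in M2627 and M2630 alone. The 4 adipocyte genes summed to 353, 795 and 266 CPM against 387, 546 and 174 CPM, and the 5 erythroid genes to 929, 85.5 and 553 CPM against 486, 354 and 633 CPM, 0 of them passing.

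**Figure D4:**
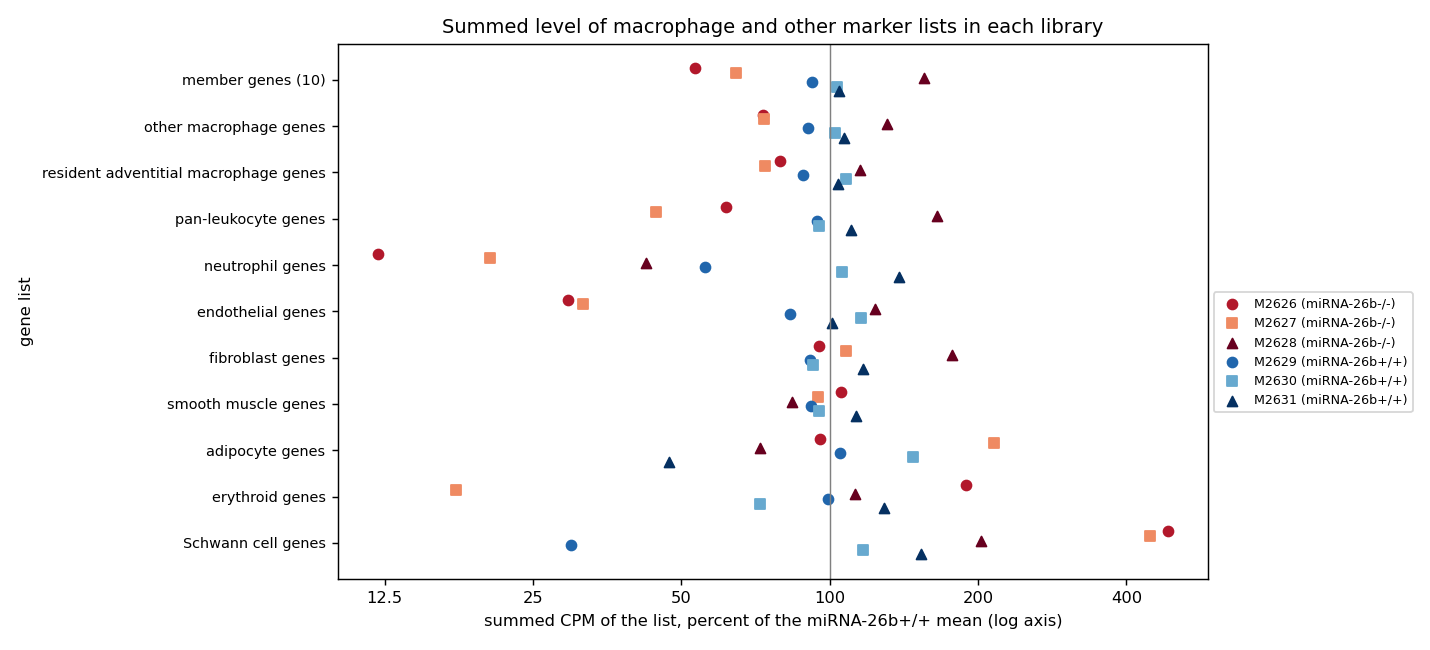
Summed CPM of the 10 genes and of 10 other gene lists in each library, as percent of the mean of the 3 miRNA-26b+/+ libraries on a log axis; the vertical line marks that mean, and colours and symbols are those of the plot of levels. The 10 genes stood at 53.3%, 64.5% and 155% of the wild-type mean in M2626, M2627 and M2628, the endothelial genes at 29.4%, 31.6% and 123%, and the smooth muscle genes at 106%, 94.7% and 83.7%.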

How the data were processed

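RNA of the aortic arch and thoracic aorta (Illumina TruSeq libraries) was sequenced for 3 miRNA-26b-/- and 3 miRNA-26b+/+ mice, grouped by the source label. The authors aligned reads with STAR to mm10 and deposited counts per gene name made with featureCounts 1.6.4 over exons, without regard to strand, a read over more than one gene being counted for all of them; the header names GENCODE release M21 and the methods M23. They also deposited log2 CPM values, used only in an alternative, and columns of their own comparison, which were not used.

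Genes were kept if their counts summed to at least 2 and exceeded 1 CPM in at least 2 libraries, scaled by TMM, and compared in edgeR 4.0.16 (R 4.3.3) by its quasi-likelihood test, with Benjamini-Hochberg adjustment over all genes tested. Standard errors are the log2 fold change divided by the root of F. Single values and ratios were compared by exact permutation over the 6 libraries (scipy 1.17.1). RPKM divides CPM by the exon length in the table. Depth (25706728 to 33345037 counts) limits low genes; the floor is 3 counts, counting error only. The quasi-likelihood fit over the 6 libraries was tested on simulated data, and the alternative fits were not. Alternatives were library size and upper quartile normalization, DESeq2 1.42.0, limma 3.58.1 (voom, and trend on the deposited log2 CPM), the likelihood ratio test, the earlier quasi-likelihood method, robust shrinkage, the low-count filters, the prior count, and fits without 1 library at a time. The members and lists were chosen with earlier results of these data known. All 10 members are named; from each list, genes with an unadjusted p under 0.05 and up to 3 of the highest mean CPM could be named, and others are marked as named after their values were seen. The values of some genes of these lists are not reported here.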

Additional observations from a re-analysis of the deposited data

How the results depend on the processing

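No paired analysis was possible because the sample labels carry no replicate numbers and the column names of the log2 CPM table give the number 2 to both M2627 and M2628, so that only 1 pair of libraries is fixed by a number, and nothing ties a number to a litter or batch. Under the alternatives in normalization, test, filter and prior count, all 110 fold changes of the members kept their direction and their side of the threshold, with adjusted p-values from 0.869 to 0.99997 (lowest unadjusted p 0.0840), and 0 members passed. The sizes did move with limma, which averages log2 values: by voom and by trend the log2 fold changes were -0.86 and -0.86 for *Adgre1*, -0.73 and -0.76 for *Mrc1*, -0.80 and -0.76 for *Cd163*, -0.40 and -0.40 for *C1qc*, -0.37 and -0.39 for *Lyve1*, -0.22 and -0.21 for *C1qa*, -0.18 and -0.18 for *Lyz2*, 0.06 and 0.06 for *C1qb* and 0.34 and 0.40 for *Cd68*, with medians of -0.38 and -0.40. The number of genes past the adjusted threshold over the whole table did depend on the tool, at 1 with the quasi-likelihood test, 57 with DESeq2, 19 with the likelihood ratio test, 3 with limma voom, 3 with robust shrinkage, 0 with the earlier quasi-likelihood method and 82 without M2628. Leaving out single libraries moved the members. The log2 fold changes ranged from -0.34 to 1.21 for *Cd68*, -1.61 to 0.0029 for *Adgre1*, -0.80 to -0.06 for *Csf1r*, -0.57 to 0.16 for *Lyz2*, -0.62 to 0.13 for *C1qa*, -0.36 to 0.41 for *C1qb*, -0.82 to 0.0094 for *C1qc*, -1.35 to 0.18 for *Mrc1*, -1.52 to 0.060 for *Cd163* and -0.72 to 0.032 for *Lyve1*. The lowest values were those without M2628; the cause was not tested. The number of members with an unadjusted p under 0.05 ranged from 0 to 8, the number past adjustment from 0 to 2 and the median from -0.76 to 0.08.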

Other observations

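The genes whose levels ran closest to the summed C1q genes over the 6 libraries, of 11625 compared by Pearson's correlation of log2 CPM, were *Scara5* (0.995), *Daam1* (0.993), *Sptbn1* (0.990), *Slco2a1* (0.987), *Pla2g7* (0.987), *Nup153* (0.986), *Itgbl1* (0.984), *Ctsh* (0.981), *Gpc3* (0.980) and *Phkb* (0.980). With 6 libraries and so many genes such values describe the order of these libraries. *Scara5*, which encodes a ferritin receptor, had 145, 166 and 323 CPM in M2626, M2627 and M2628 against 220.4, 234 and 232 CPM in the wild type. *Daam1*, which ranked next, had 63.9, 69.8 and 94.5 CPM against 76.1, 78.6 and 78.3 CPM. *Sptbn1* had 743, 753 and 1124 CPM against 887, 918 and 971 CPM. Lower in the ranking, *Pla2g7*, which encodes a phospholipase secreted by macrophages, had 3.71, 3.99 and 17.4 CPM against 8.51, 9.32 and 9.06 CPM. *Ctsh*, a lysosomal cathepsin gene, had 160.05, 173 and 243 CPM against 193, 202 and 219 CPM. None of the ranked genes belonged to the macrophage lists above, and whether they mark macrophages here was not tested. In these genes M2626 and M2627 were the lowest libraries and M2628 the highest, with the wild-type libraries between. Because they were ranked by likeness to the C1q genes, this order restates how they were chosen.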
